A study of Mus musculus with 9 samples.

Results

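Adult adrenal medulla was set against early neural crest across all genes of a mouse Affymetrix expression series, the start and the end of the course from crest cell to chromaffin cell. The comparison used the 3 arrays labelled P90, from medulla of adults aged 3 months, and the 3 arrays labelled E8.5, from neural crest at the time the neural tube closes. These were 6 of the 9 arrays of the series, and the remaining 3, from dorsal root ganglion at E13.5, entered the filter on low signal and the shared estimate of the spread between arrays. The arrays were taken by their sample labels, and every gene with a probe set of its own that passed a filter on low signal was tested, 13833 of the 18193 genes annotated. Cells of every stage were taken by laser capture microdissection, a laser-guided excision of cells from tissue sections, and 400 ng of total RNA was labelled for each array. The labels name neither strain, sex, genotype nor treatment, and call the 3 samples of a stage biological replicates without giving the number of animals or embryos behind each, so p-values measure the spread between these samples. Stage, age and tissue change together here and cannot be told apart.

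The neural crest forms at the border of the neural plate, leaves the closing neural tube and migrates through the embryo to give rise to peripheral neurons, glia, pigment cells, parts of the facial skeleton and the chromaffin cells of the adrenal medulla. Chromaffin cells make dopamine, noradrenaline and adrenaline from tyrosine, store them in large dense-core granules together with acidic granin proteins, and release them by calcium-triggered exocytosis when preganglionic nerve endings deliver acetylcholine. The medulla lies inside the steroid-producing adrenal cortex, whose glucocorticoids reach it through the blood.

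The genes that mark the end points separated the arrays. They were chosen with earlier results of these data known and are among the largest changes, so this is no independent check. Chgb, the granin secretogranin 1, had signals of 15.3, 62.1 and 31 at E8.5 and 6419, 8210 and 7815 at P90. Chga, chromogranin A, read 91.9, 71.2 and 54.5 at E8.5 and 4368, 7120 and 7521 at P90. Crabp2, a carrier of retinoic acid inside the cell, read 3226, 4022 and 4452 at E8.5 and 6.2, 6.2 and 4.3 at P90, and Igf2bp1, an RNA-binding protein of embryonic tissues, read 3509, 3003 and 2942 at E8.5 and 10.8, 18 and 10.2 at P90. The arrays of the stages did not overlap for any of these 4 genes. Median array signals were 38.3 to 41.0 at E8.5 and 43.3 to 48.2 at P90, and Pearson correlations of log2 signals were 0.951 to 0.986 within E8.5, 0.914 to 0.980 within P90 and 0.809 to 0.858 between the stages.

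Replicate 1 stood apart from replicates 2 and 3 within both stages. P90 replicate 1 minus the mean of the other 2 arrays had a median of -2.14 on the log2 scale over 25 pan-neuronal genes, -1.02 over 22 exocytosis genes and -1.05 over 9 sympathoadrenal transcription factors. It was higher by a median of 1.28 over 39 respiratory chain genes and by 1.27 over the 3 adrenal cortex genes with values on every array. Over all genes its median was 0.25 higher, no more than the 0.30 by which P90 replicate 2 exceeded replicate 3. The Actb probe sets for the 3′ and 5′ ends of the transcript, which are a reading of RNA integrity and labelling length, differed by 1.36 on P90 replicate 1 and by 4.09 and 3.51 on replicates 2 and 3 (log2). At E8.5 it was replicate 1 that differed most, with 4.82 against 2.05 and 2.39, and the median difference of that array from the other 2 was -0.92 over surface epithelium genes and -0.50 over neural crest specification genes. Counts of most lists are therefore given with and without each replicate 1. The part of RNA quality and of tissue composition in these differences was not tested.

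**Figure D1:**
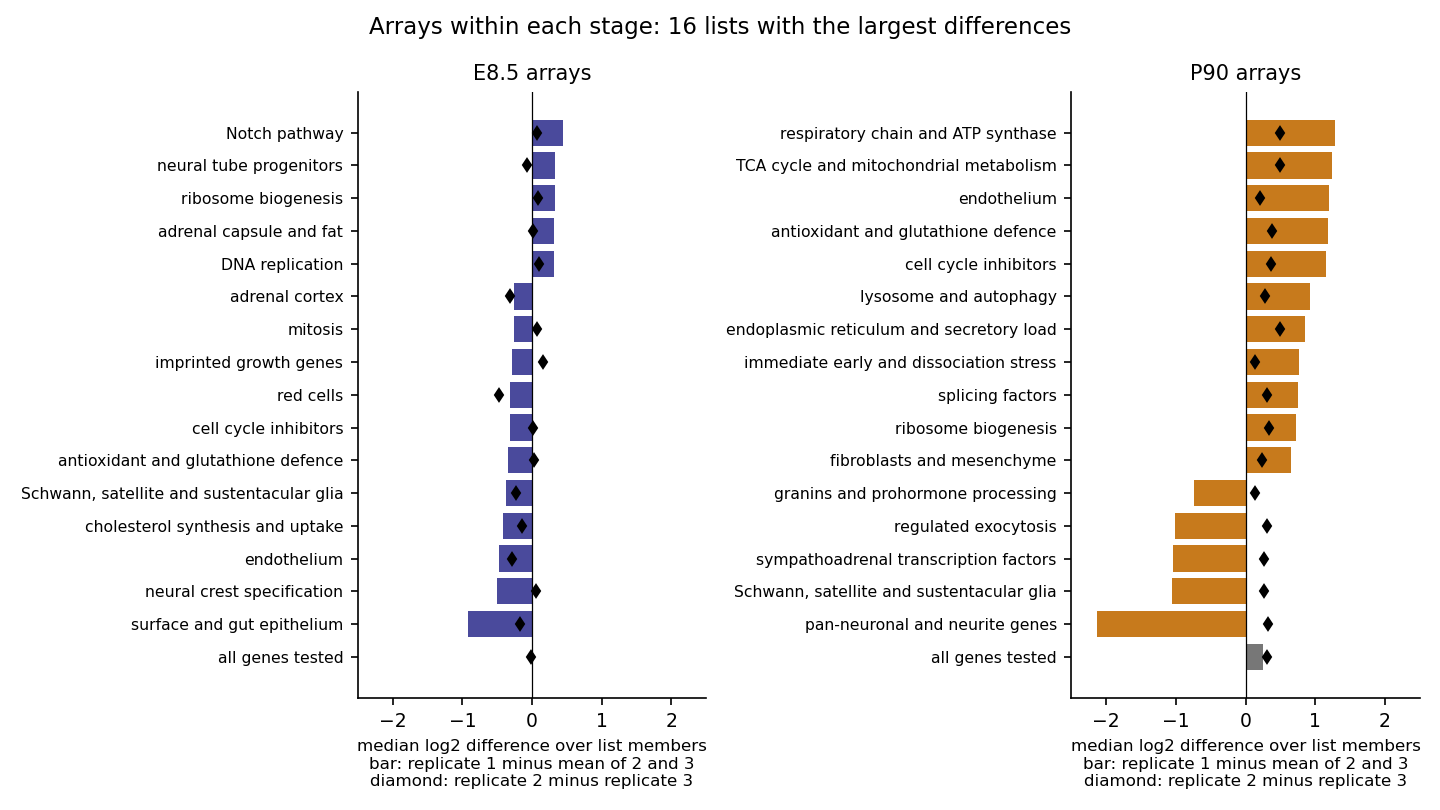
Median log2 difference between arrays of one stage over the members of gene lists, for E8.5 (left) and P90 (right). Bars are replicate 1 minus the mean of replicates 2 and 3, diamonds are replicate 2 minus replicate 3, the grey bar is all genes tested, and the 16 lists with the largest bars among those of 7 or more genes are drawn. On the P90 side the bars run from -2.14 for pan-neuronal genes to 1.28 for respiratory chain genes, and the diamonds of the lists stay closer to 0. For all genes at P90 the bar is at 0.25 and the diamond at 0.30.

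Between the stages, 1504 genes were called higher at P90 and 1734 lower, at a Benjamini-Hochberg adjusted p under 0.05 in limma's moderated test. That is 23.4% of the 13833 genes tested, 10.9% higher and 12.5% lower. The change was at least 2-fold for 1425 of the higher and 1669 of the lower genes, and at least 8-fold for 277 and 255. Of the called genes, 3195 had no overlap between the arrays of the stages and 43 overlapped. Over all genes tested, every P90 array was above every E8.5 array for 20.3% and below for 23.7%. The median change of all genes was 0.0029 on the log2(signal + 16) scale, that of the higher genes 1.96 and that of the lower genes -1.84. Called genes without P90 replicate 1 numbered 1528 higher and 2023 lower, and without E8.5 replicate 1 they numbered 1092 and 1233. The counts were 946 and 1037 without E8.5 replicate 2, 1099 and 1099 without E8.5 replicate 3 and 837 and 1269 without P90 replicate 2.

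**Figure D2:**
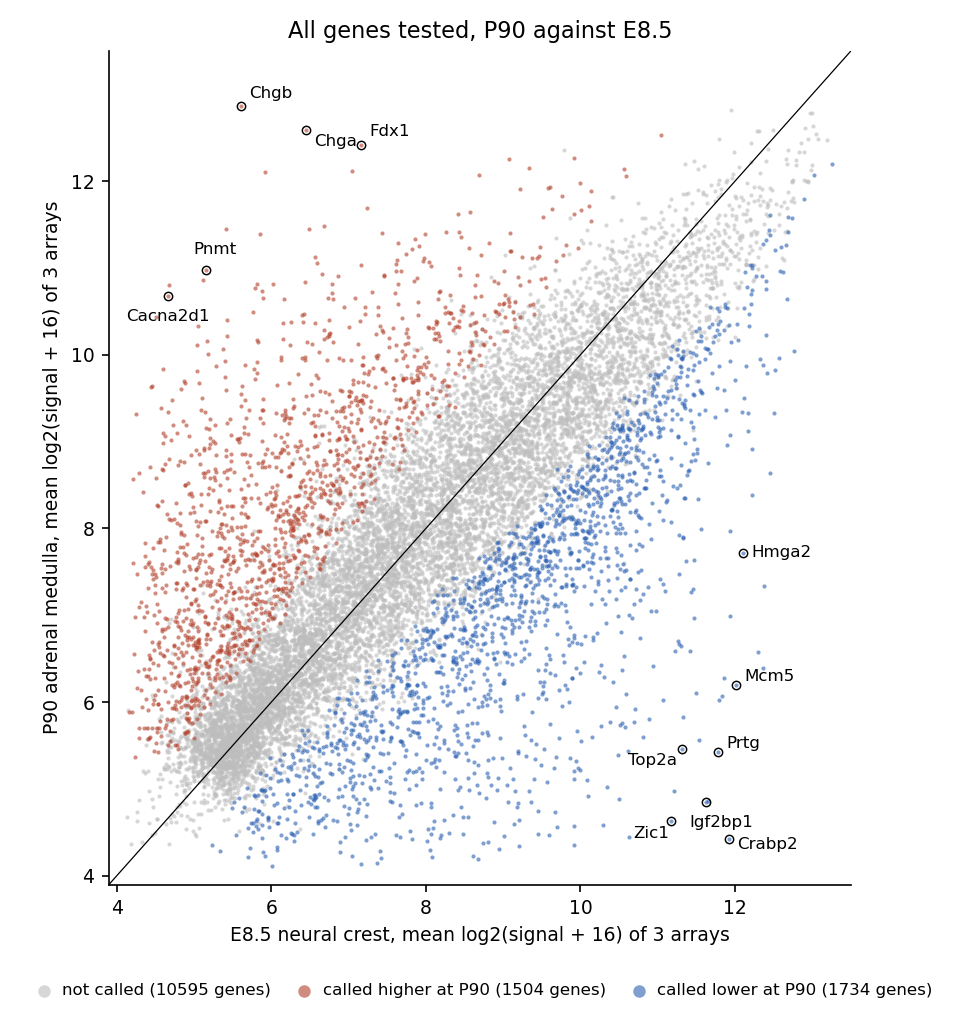
Mean log2(signal + 16) of the 3 P90 arrays (vertical) against that of the 3 E8.5 arrays (horizontal), 1 point per gene tested, with genes called higher at P90 in red, genes called lower in blue and the line of equal signal in black. The 1504 red and 1734 blue points lie on either side of the line, and circled genes such as Chgb and Crabp2 sit at the far corners.

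After the granins, the largest rises fell on genes of several kinds. They were ranked among called genes with no empty cell at E8.5 or P90 and no overlap between the stages. Unnamed and predicted genes were passed over, and genes with an empty cell, such as Cyb561 with 6.18, stood outside the ranking. Mmd2, a membrane protein of the progestin and adipoQ receptor family, had signals of 12, 6.4 and 10.8 at E8.5 and 3622, 1765 and 858 at P90. Cacna2d1, a subunit that brings voltage-gated calcium channels to the cell surface, read 10.2, 5.8 and 12.4 at E8.5 and 2340, 1356 and 1348 at P90. Gucy1a1, a subunit of the nitric oxide receptor guanylate cyclase, read 8.2, 4.8 and 12.1 at E8.5 and 542, 1657 and 795 at P90. Every P90 array was above every E8.5 array for these genes, and the changes were 6.12 ± 0.51, 6.02 ± 0.46 and 5.24 ± 0.42 on the log2 scale. Here and below, ± is limma's moderated SE, from a spread estimated over all 9 arrays. It compares 3 with 3 arrays, or fewer where a cell was empty. Gsg1l, an auxiliary subunit of glutamate receptors, Vcam1, an adhesion molecule for leukocytes, Mfsd6, Zbtb20 and Egr1 rose by 5.18, 5.07, 4.98, 4.96 and 4.99. The call of Mmd2 did not hold when probe sets that can match several transcripts were left out (limma adjusted p = 0.068), when another of its probe sets was read. Among genes named here or below, the same held for the falls of Hbb-y, Cdca8, Plagl1, Tfap2c, Hoxa3, Hmgb2, Msx1 and Smo (limma adjusted p 0.0514 to 0.944).

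The largest falls, ranked by the same rule, included Crabp2 and Igf2bp1 with changes of -7.49 ± 0.49 and -6.78 ± 0.41. Hbb-y, an embryonic beta-like globin, read 1792, 3334 and 5427 at E8.5 and 3.9, 6.8 and 38 at P90. Prtg, protogenin, an adhesion receptor of the early neuroepithelium, read 3206, 3356 and 4029 at E8.5 and 20, 24.7 and 38.3 at P90. Ercc6l, a DNA translocase that acts at chromosome bridges in anaphase, read 1486, 1595 and 1629 at E8.5 and 7.6, 7.3 and 2.9 at P90. Prtg and Ercc6l varied little among the E8.5 arrays, whereas Hbb-y was lowest on E8.5 replicate 1 and highest on replicate 3. The other genes among the 15 largest falls of genes with no empty cell were Zic1, Sox2, the cell cycle genes Cdca8, Top2a, Mcm5, Cdc20, Mki67, Rrm2 and Ncapg. The embryonic globin Hbb-bh1 was among them too.

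Genes of catecholamine synthesis and storage were higher in the medulla. Of 13 tested members, 7 rose and 0 fell, beside 10.9% higher and 12.5% lower over all genes, and the list's median change was 2.94 on the log2 scale. Th, tyrosine hydroxylase, the rate-limiting enzyme, read 127, 112 and 111 at E8.5 and 4441 and 4437 on replicates 2 and 3 at P90, with an empty cell for P90 replicate 1. Dbh, which turns dopamine into noradrenaline, read 44.4, 40.1 and 38.4 at E8.5 and 305, 2172 and 2072 at P90. Pnmt, which methylates noradrenaline to adrenaline, read 30.4, 15.1 and 15.7 at E8.5 and 632, 3749 and 3288 at P90. All P90 values lay above all E8.5 values, and P90 replicate 1 was well below the other P90 arrays for Dbh and Pnmt. Changes were 5.07 ± 0.44, 4.32 ± 0.61 and 5.81 ± 0.57 on the log2 scale, with limma adjusted p of 2.84e-05, 0.000457 and 3.55e-05. Ddc, the decarboxylase that makes dopamine, read 195, 194 and 162 at E8.5 and 564, 2600 and 2363 at P90, and Slc18a1, the vesicular monoamine transporter of chromaffin granules, read 52.8, 78.8 and 87.8 at E8.5 and 382, 1977 and 1841 at P90. Gch1, the first enzyme of the tetrahydrobiopterin cofactor path, did not follow that pattern among the P90 arrays and read 26.7, 27.9 and 74.7 at E8.5 and 1901, 1851 and 1471 at P90. Cyb561, which passes electrons into the granule for Dbh, rose by 6.18 on replicates 2 and 3. The count was 8 of 13 without P90 replicate 1, 7 of 13 without E8.5 replicate 1 and 5 of 11 without P90 replicate 2 or 3, where the median was 0.79 and 0.84. In a bulk sample, fewer cells of a type and less RNA per cell cannot be told apart.

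Granins and the enzymes that process prohormones rose in 8 of 9 tested members, with a median of 2.38. Chgb changed by 7.26 ± 0.55 (limma adjusted p = 6.88e-06) and Chga by 6.15 ± 0.44 (limma adjusted p = 5.47e-06). Both were high on P90 replicate 1 as well, unlike Dbh, Pnmt and Ddc. Pcsk1n, an inhibitor of prohormone convertase 1, read 40.1, 26 and 32.4 at E8.5 and 85.3, 1340 and 1056 at P90, and Vgf, a neuroendocrine granin, read 43.4, 41.8 and 28.5 at E8.5 and 80.8, 614 and 559 at P90, so that P90 replicate 1 lay far closer to E8.5 for these than for Chgb. Pcsk1, the convertase itself, rose by 2.38. The count was 7 without P90 replicate 1 and 5 without any one of the 3 E8.5 arrays. Among 9 neuropeptide and hormone genes 2 rose. Gal, galanin, read 32.4, 47.5 and 50.9 at E8.5 and 621, 3099 and 2466 at P90, and Adm, adrenomedullin, read 2.6, 7.4 and 5.8 at E8.5 and 31, 269 and 282 at P90. The count was 2 without either replicate 1, and 1 without P90 replicate 2 or 3, where Adm was not tested.

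**Figure D3:**
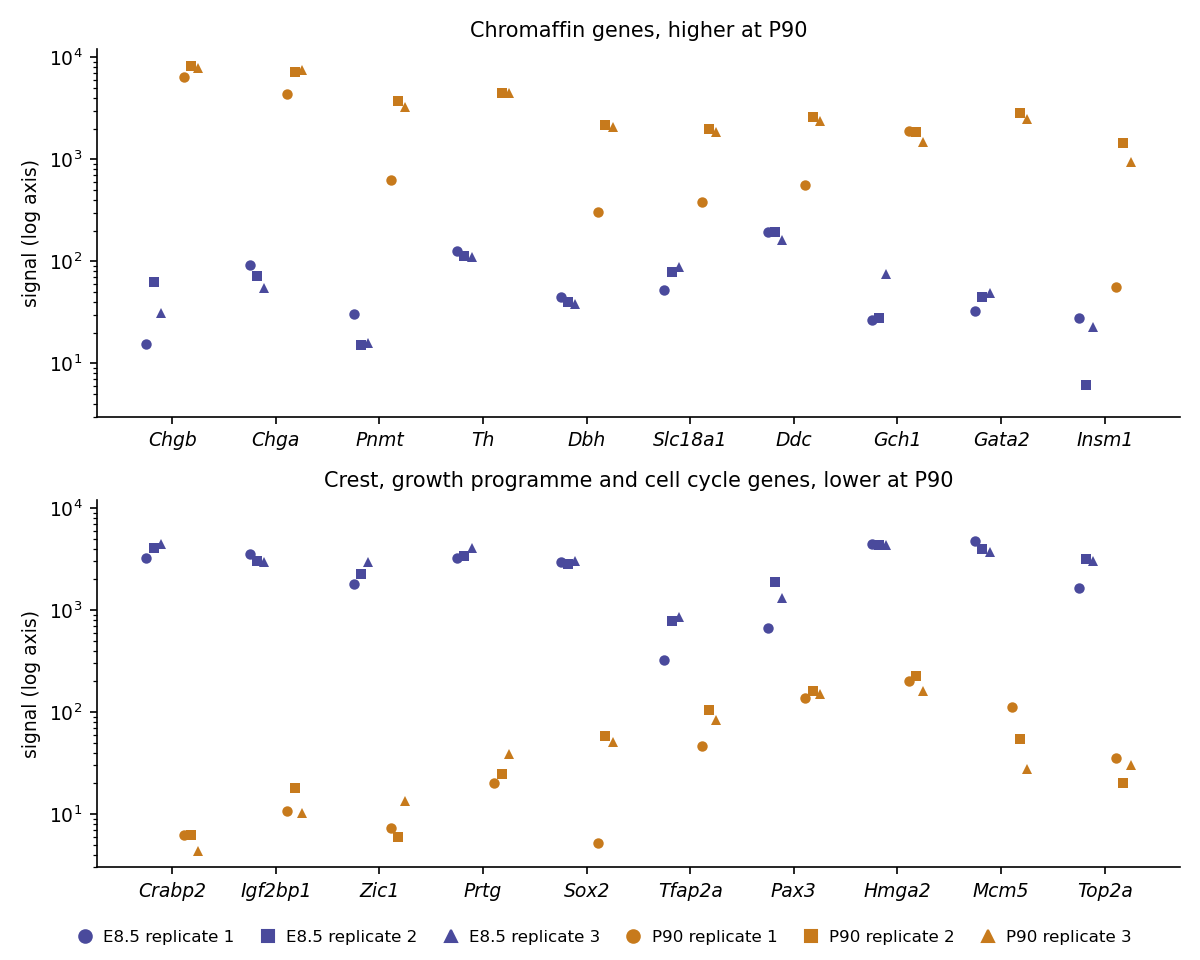
Signals of 20 genes on each of the 3 E8.5 arrays (blue) and 3 P90 arrays (orange) on a log axis, with replicates 1, 2 and 3 as circles, squares and triangles. Chromaffin genes (top) are higher on every P90 array, with replicate 1 the lowest P90 array for Pnmt, Dbh, Slc18a1, Ddc and Insm1 and empty for Th and Gata2, and crest, growth programme and cell cycle genes (bottom) are lower on every P90 array.

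The promoters of Th and Chgb share a letter string, and are shown because both genes rose and cyclic AMP response elements are known to act in genes of chromaffin cells. The windows run from 250 bases before to 50 after the gene start in RefSeq (GRCm38.p6), at chr7:142899946-142900245 (minus strand) for Th and chr2:132781392-132781691 (plus strand) for Chgb, 5′ to 3′ along the gene. Capitals mark the palindrome TGACGTCA, the full cyclic AMP response element, which reads the same on both strands and occurred once in each window.
Th: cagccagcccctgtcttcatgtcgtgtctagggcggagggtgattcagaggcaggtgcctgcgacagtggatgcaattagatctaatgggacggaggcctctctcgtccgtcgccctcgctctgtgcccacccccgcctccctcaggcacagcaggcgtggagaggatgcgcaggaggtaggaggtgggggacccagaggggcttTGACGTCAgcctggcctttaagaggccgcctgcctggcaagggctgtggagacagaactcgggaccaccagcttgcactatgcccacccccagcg
Chgb: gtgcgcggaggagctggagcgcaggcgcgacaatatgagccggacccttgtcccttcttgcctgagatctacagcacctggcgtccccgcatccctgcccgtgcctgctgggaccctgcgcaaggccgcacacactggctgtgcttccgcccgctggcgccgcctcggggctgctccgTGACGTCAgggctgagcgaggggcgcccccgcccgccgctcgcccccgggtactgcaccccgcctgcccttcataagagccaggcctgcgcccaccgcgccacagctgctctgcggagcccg
Among all 14161 windows of tested genes 2.75% held this string, among windows of higher genes 2.49% and among windows of lower genes 3.12%. The share among higher genes was thus no larger than among all.

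Transcription factors of the sympathoadrenal lineage, the branch of the crest that forms sympathetic neurons and chromaffin cells, rose in 7 of 10 tested members with a median of 3.01. Gata2 read 32.8, 44.8 and 48.5 at E8.5 and 2865 and 2496 on replicates 2 and 3 at P90. Epas1, the hypoxia-inducible factor 2 alpha, read 81.3, 58.9 and 72 at E8.5 and 4489, 1358 and 962 at P90, and was highest on P90 replicate 1. Insm1, a zinc finger factor of neuroendocrine cells, read 27.9, 6.1 and 22.8 at E8.5 and 56.3, 1449 and 934 at P90, and P90 replicate 1 lay far closer to the E8.5 arrays than to the other P90 arrays. The homeobox factors Phox2a and Prox1 rose by 2.37 and 1.99. Egr1, an immediate early factor known to drive Th and Pnmt, read 22, 41.3 and 66.2 at E8.5 and 1090, 1929 and 2670 at P90 (limma adjusted p = 0.000106). Immediate early and stress genes are given as a list of their own below, and what raised Egr1 was not tested. Hand2 and Gata3 were not tested since the P90 cells for their probe sets were empty on 3 and on 2 arrays. The count was 6 of 9 without P90 replicate 1, 7 of 10 without E8.5 replicate 1, and 4 without P90 replicate 2 or without P90 replicate 3.

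The machinery of release and excitability rose in part. Of 22 exocytosis genes 7 rose and 0 fell, with a median of 1.23. Rab3c, a small GTPase on secretory vesicles, read 14.9, 14.1 and 23.2 at E8.5 and 379, 2385 and 2234 at P90. Snap25, a plasma membrane SNARE, read 10.8, 16.2 and 19.4 at E8.5 and 111, 966 and 755 at P90, and Syt1, the calcium sensor synaptotagmin 1, read 93.9, 72.6 and 116 at E8.5 and 443, 2124 and 1820 at P90. In these genes P90 replicate 1 lay between E8.5 and the other P90 arrays, and 13 of 22 genes rose without it and 7 without E8.5 replicate 1. Without P90 replicate 3 the count was 4. Of 18 ion channel genes 9 rose and 0 fell, with a median of 1.95. Kcnk3, a background potassium channel sensitive to acid, read 14.7, 3.9 and 1 at E8.5 and 962 and 628 on replicates 2 and 3 at P90, and Kcnmb2, a subunit of the calcium-activated potassium channel, read 31.7, 40.1 and 37.5 at E8.5 and 124, 801 and 623 at P90. Kcnma1, the pore of that channel, rose by 2.95. The channel count was 11 without P90 replicate 1, 6 without E8.5 replicate 1 and 5 without P90 replicate 2, where the median was 1.15.

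Of 13 receptors tested 2 rose and 1 fell, near the 10.9% and 12.5% over all genes. Adcyap1r1, the receptor for the transmitter PACAP, read 36.4, 16.4 and 18.5 at E8.5 and 69.2, 1168 and 946 at P90, and Chrna3, the nicotinic subunit of ganglionic synapses, read 25.2, 16.9 and 38.2 at E8.5 and 63.2, 1069 and 734 at P90. Ret, the receptor for GDNF family ligands, fell, with 193, 183 and 184 at E8.5 and 12.4, 54.5 and 35.8 at P90. The call of Ret was lost with 2 values asked of each of 3 stages and when a change of at least 2-fold was tested. Over all settings its change lay between -2.63 and -0.45. Another Adcyap1r1 probe set, with mean signals of 67.3 at E8.5 and 68.6 at P90, moved by 0.06. Adcyap1r1 and Chrna3 were low on P90 replicate 1. Chrna3 was not called when 1 array of 4 was left out, E8.5 replicates 1 and 2 and P90 replicates 2 and 3 (limma adjusted p 0.0542 to 0.0671), and the count of receptors that rose was 3 without P90 replicate 1 and 1 without E8.5 replicate 1.

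Neuronal genes outside release were called in part. Of 25 pan-neuronal and neurite genes 6 rose and 1 fell, with a median of 1.17, and 15 rose without P90 replicate 1, with a median of 1.81. The median was 0.71 without P90 replicate 2. The count was 2 without any one of the 3 E8.5 arrays or without P90 replicate 2 or 3. Mapt, the microtubule protein tau, rose, with 86.1, 88.6 and 98.6 at E8.5 and 2941, 1105 and 734 at P90. Thy1 read 22.5, 23.5 and 19.8 at E8.5 and 63.9, 803 and 626 at P90, and P90 replicate 1 was far below the other P90 arrays. Cd24a, a surface protein of progenitors, fell, with 2533, 2964 and 2942 at E8.5 and 121, 263 and 190 at P90. Of 13 sensory neuron genes 1 rose and 2 fell, near the 10.9% and 12.5% over all genes, with a median of 0.23. Rises numbered 2 without P90 replicate 1 and 0 without E8.5 replicate 1. Prrxl1, a homeobox factor of sensory neurons, rose, with 7.4, 19.4 and 25.7 at E8.5 and 53.7, 660 and 408 at P90, and was not called without E8.5 replicate 1 or P90 replicate 3. Neurog2, a proneural factor, read 1140, 540 and 300 at E8.5 and 12.3, 8.6 and 6.5 at P90, and Pou4f1 read 531, 181 and 112 at E8.5 and 30.6, 38.7 and 47.3 at P90. The latter pair fell, and both were higher on E8.5 replicate 1 than on the other E8.5 arrays. Among 17 genes of Schwann, satellite and sustentacular glia 4 rose and 3 fell, with 3 and 4 without P90 replicate 1 and 3 and 3 without E8.5 replicate 1. Apoe read 51.3, 42.8 and 53.3 at E8.5 and 5017, 924 and 1208 at P90, Cryab read 2, 6.4 and 14.8 at E8.5 and 49.5, 551 and 307 at P90, and Cdh19 rose by 1.76. Apoe was highest on P90 replicate 1, while the list's median difference of that array from the other 2 was -1.05. The 3 falls were Sox10, Sox2 and Foxd3, and the latter pair are given below with the neural tube and crest genes. The glial factor Sox10, which crest cells also express, read 232, 299 and 315 at E8.5 and 72.4, 116 and 137 at P90. Its fall was not called when E8.5 replicate 2, E8.5 replicate 3 or P90 replicate 2 was left out (limma adjusted p 0.053 to 0.0751), and another of its probe sets, with mean signals of 52.2 and 63.1, moved by 0.21.

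Genes that specify the neural crest were lower in the medulla. Of 25 tested members 15 fell and 0 rose, with a median of -1.82, and 16 fell without P90 replicate 1 and 13 without E8.5 replicate 1. Zic1, a zinc finger factor of the neural plate border, read 1804, 2247 and 2945 at E8.5 and 7.2, 6 and 13.5 at P90. Tfap2c, an AP-2 factor of the same border, read 630, 880 and 928 at E8.5 and 8.7, 13.1 and 10.6 at P90. Pax3 read 671, 1882 and 1297 at E8.5 and 137, 162 and 148 at P90, and Foxd3, which keeps crest cells multipotent, read 184, 407 and 237 at E8.5 and 4.4, 54.1 and 30.6 at P90. The arrays of the stages did not overlap for these factors, and the changes were -6.54 ± 0.42, -4.93 ± 0.28, -2.86 ± 0.46 and -2.78 ± 0.46 on the log2 scale (limma adjusted p at most 0.00133). The fall of Tfap2c rests on a probe set that can match several transcripts, and another moved by -0.37 (limma adjusted p = 0.438). The list's median was -1.21 without E8.5 replicate 3. Tfap2a read 325, 782 and 856 at E8.5 and 46.5, 104 and 83.5 at P90, with E8.5 replicate 1 the lowest of its stage. A second Tfap2a probe set moved by -2.84 and another, with mean signals of 50.6 and 72.4, by 0.42. Twist1, Sox9, Msx1 and Zic5 fell, with changes of -2.85, -2.84, -2.46 and -1.82. Mycn read 648, 2335 and 2258 at E8.5 and 32.2, 273 and 279 at P90, and its call was lost without E8.5 replicate 2 or 3 (limma adjusted p 0.0685 and 0.0765).

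Neural tube genes and an embryonic growth programme fell as well. Of 15 neural tube progenitor genes 8 fell and 0 rose, with 8 also without P90 replicate 1, 5 of 12 without E8.5 replicate 1 or 2 and 5 of 11 without E8.5 replicate 3. Sox2, a factor of neural progenitors, read 2960, 2854 and 3009 at E8.5 and 5.2, 57.5 and 51.2 at P90. Wnt1 and Pax6, which pattern the dorsal tube and its ventricular zone, read 433, 423 and 585 at E8.5 and 5.8, 2.3 and 3.7 at P90 and 454, 428 and 316 at E8.5 and 15.5, 17.5 and 12.2 at P90. Of 12 growth programme genes 9 fell and 0 rose, with a median of -2.86, 9 of 12 without P90 replicate 1 and 7 of 10 without E8.5 replicate 1. Hmga2, an architectural chromatin protein and target of let-7 microRNAs, read 4412, 4358 and 4330 at E8.5 and 203, 224 and 162 at P90. Sall4, a factor of pluripotent and early embryonic cells, read 337, 381 and 534 at E8.5 and 2.9, 3.2 and 8.7 at P90. The E8.5 signals of Hmga2 lay within a narrow span, and its change was -4.38 ± 0.49. Lin28a, which blocks let-7 maturation, and Igf2bp3 changed by -2.61 and -2.04.

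Imprinted genes were called in both directions. Of 17 tested, 4 fell (23.5%) and 2 rose (11.8%), beside 12.5% and 10.9% over all genes, with a median of -0.05. The counts were 5 and 3 without P90 replicate 1 and 3 and 3 without E8.5 replicate 1. Mest read 1739, 3007 and 2319 at E8.5 and 196, 336 and 246 at P90 and Plagl1, a zinc finger regulator of the imprinted network, read 3588, 3565 and 2538 at E8.5 and 142, 635 and 770 at P90. Dlk1, a Notch ligand family protein expressed in medulla, read 95.6, 61.4 and 83.9 at E8.5 and 353, 1784 and 989 at P90, and Nap1l5 read 20, 43.2 and 21.6 at E8.5 and 458, 1926 and 1791 at P90. The fall count was 2 without E8.5 replicate 2, without E8.5 replicate 3 or without P90 replicate 3.

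Signalling pathways of the early embryo were called lower to different extents, beside 12.5% lower over all genes. The Wnt list had 15 of 27 members lower and 2 higher, with a median of -1.18, and 15 without P90 replicate 1 and 10 of 25 without E8.5 replicate 1. Its median was -0.55 without E8.5 replicate 3. Sfrp2, a secreted Wnt modulator, read 925, 575 and 530 at E8.5 and 13.7, 22 and 21.2 at P90. Sp5, a target gene of the pathway, read 182, 270 and 293 at E8.5 and 4.6, 4.5 and 6.3 at P90, and the receptors Fzd7 and Fzd2 changed by -3.45 and -3.20. Lgr5, the receptor for R-spondins, went the other way and rose, with 114, 58.1 and 62.8 at E8.5 and 166, 1960 and 1464 at P90. Dkk3 rose by 2.23.

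Of 13 Hedgehog pathway genes 8 fell and 0 rose, with a median of -1.87, with 8 also without P90 replicate 1 and 7 without E8.5 replicate 1. Gli2 read 921, 726 and 511 at E8.5 and 10.1, 21.9 and 42.8 at P90, and Gli3 read 894, 1784 and 1692 at E8.5 and 66.9, 35.3 and 38.4 at P90. Smo, the transducer of the signal, changed by -2.18. One more Gli3 probe set, with mean signals of 33.1 and 69.2, moved by 0.85, and another by -5.20. Of 12 retinoic acid genes 5 fell and 1 rose, with 5 without P90 replicate 1, 3 without E8.5 replicate 1 and 2 without E8.5 replicate 2. Crabp1 read 2134 and 2655 on replicates 1 and 2 at E8.5 and 18, 162 and 133 at P90, with E8.5 replicate 3 empty. Rarb, a receptor and target, read 124, 156 and 150 at E8.5 and 76.8, 48.5 and 39.3 at P90.

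Of 21 Hox genes 6 fell and 1 rose, with 6 without P90 replicate 1 and 5 without E8.5 replicate 1. Hoxa2 read 231, 352 and 488 at E8.5 and 8.8, 6.1 and 4.2 at P90, and Hoxd3 read 463, 411 and 489 at E8.5 and 30.4, 23.7 and 21.3 at P90. Hoxd8, nearer to the 5′ end of its cluster, rose, with 49.7, 34.3 and 25.2 at E8.5 and 463, 217 and 183 at P90. Hoxd1, Hoxa3, Hoxb2 and Hoxb3 changed by -3.13, -3.00, -2.25 and -1.57, so all 6 that fell were paralogs 1 to 3 of their clusters. The fall of Hoxa3 rests on a probe set that can match several transcripts, and without such probe sets it read -0.28 (limma adjusted p = 0.504). The call of Hoxb3 was lost without any one E8.5 array or P90 replicate 2 or 3 (limma adjusted p 0.0817 to 0.117). FGF genes fell in 4 of 20 (20%) and rose in 0, and Notch genes fell in 4 of 17 (23.5%) and rose in 1. Over all genes 12.5% fell and 10.9% rose. The FGF count was 5 without P90 replicate 1, 3 without E8.5 replicate 1 and 2 without E8.5 replicate 2 or 3. The Notch count of falls was 6 without P90 replicate 1, 2 without E8.5 replicate 1 or 3 or P90 replicate 2, and 1 without E8.5 replicate 2 or P90 replicate 3. Fgfr3 read 601, 225 and 226 at E8.5 and 32.9, 22.9 and 25.3 at P90, and the Notch target Hes5 read 647, 188 and 153 at E8.5 and 39, 45.1 and 31.9 at P90, both highest on E8.5 replicate 1.

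Of 24 BMP and TGF-beta genes 2 rose and 3 fell, near the 10.9% and 12.5% over all genes, with a median of 0.04. Tgfbr3, the co-receptor betaglycan, read 67.6, 136 and 107 at E8.5 and 4868, 1306 and 1088 at P90, highest on P90 replicate 1. Acvr2b, an activin receptor, fell, with 2830, 1152 and 1197 at E8.5 and 95.3, 196 and 196 at P90. A second Tgfbr3 probe set moved by -0.35. The counts were 3 higher and 3 lower without P90 replicate 1 and 1 higher and 3 lower without E8.5 replicate 1. Without E8.5 replicate 2 or 3 they were 1 and 1, and without P90 replicate 2 or 3 the lower count was 1.

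The cell cycle genes were lower in the medulla almost throughout. Of 40 DNA replication genes 34 fell and 0 rose, with a median of -3.11, and of 38 mitosis genes 35 fell and 0 rose, with a median of -4.00. The counts were 35 of 40 and 35 of 37 without P90 replicate 1, and 34 of 39 and 35 of 37 without E8.5 replicate 1. Mki67, the proliferation antigen, read 3160, 3804 and 3954 at E8.5 and 63.8, 43.7 and 47.8 at P90. Mcm5, a subunit of the replicative helicase, read 4744, 3957 and 3665 at E8.5 and 112, 54.3 and 27.8 at P90, and Rrm2, which makes deoxynucleotides, read 4351, 5369 and 5347 at E8.5 and 89.2, 67.3 and 82.7 at P90. Top2a, the topoisomerase of dividing cells, read 1648, 3197 and 3054 at E8.5 and 35.5, 20.2 and 30 at P90, and Cdc20, an activator of the anaphase-promoting complex, read 3825, 3327 and 3421 at E8.5 and 83.7, 41.5 and 32.4 at P90. No array of one stage overlapped the other for these genes, and the changes were between -5.76 and -5.85 for the mitotic genes named here and -5.81 and -5.72 for the replication genes.

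Regulators of entry into the cycle followed in smaller numbers. Of 25 G1 cyclin, E2F and pocket protein genes 14 fell and 0 rose, with 14 without P90 replicate 1, 11 without E8.5 replicate 1 and 9 without E8.5 replicate 2. E2f7 and E2f8, the repressor E2Fs, read 1231, 1011 and 982 at E8.5 and 18.4, 19.8 and 17.3 at P90 and 768, 582 and 669 at E8.5 and 42.5, 26.8 and 22.4 at P90. No array of one stage overlapped the other for either gene. Cell cycle inhibitors rose in 5 of 16 and fell in 2, with 4 and 2 without P90 replicate 1 and 3 and 1 without E8.5 replicate 1. Cdkn2c, the inhibitor p18, read 84.6, 49.3 and 45 at E8.5 and 1115, 504 and 256 at P90, and Btg2 read 111, 87.1 and 97.6 at E8.5 and 625, 602 and 695 at P90. The fall in Cdkn3 was lost without any one of the 6 arrays compared or E13.5 replicate 3 (limma adjusted p 0.0663 to 0.149), and the count of falls was 1 without each of these except P90 replicate 1, where it was 2.

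Promoters of the cell cycle genes that fell are shown because they share letter strings that few other promoters hold together. Capitals mark the CCAAT box (CCAAT, or ATTGG on the other strand) and the cell cycle genes homology region, CHR (TTTGAA or TTCGAA, or TTCAAA on the other strand) in Ccnb2, cyclin B2, at chr9:70421505-70421804 (minus strand) and in Top2a at chr11:99024140-99024439 (minus strand). In Mcm6, a helicase subunit, at chr1:128359656-128359955 (minus strand) they mark E2F strings (TTTCGCGC, TTTGGCGC or TTTCCCGC, either strand, which may overlap). All windows are from RefSeq (GRCm38.p6), 5′ to 3′ along the gene.
Ccnb2: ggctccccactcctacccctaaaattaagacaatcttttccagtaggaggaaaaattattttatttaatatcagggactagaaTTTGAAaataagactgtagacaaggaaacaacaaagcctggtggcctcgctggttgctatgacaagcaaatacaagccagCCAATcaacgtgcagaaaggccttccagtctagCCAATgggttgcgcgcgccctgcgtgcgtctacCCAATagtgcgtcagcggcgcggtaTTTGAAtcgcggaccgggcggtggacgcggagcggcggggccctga
Top2a: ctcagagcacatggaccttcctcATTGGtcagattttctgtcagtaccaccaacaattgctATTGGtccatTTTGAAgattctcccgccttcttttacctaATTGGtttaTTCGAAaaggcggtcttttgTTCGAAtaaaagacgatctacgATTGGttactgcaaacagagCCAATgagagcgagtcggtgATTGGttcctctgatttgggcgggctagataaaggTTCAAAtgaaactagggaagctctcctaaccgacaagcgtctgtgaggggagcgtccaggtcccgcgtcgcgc
Mcm6: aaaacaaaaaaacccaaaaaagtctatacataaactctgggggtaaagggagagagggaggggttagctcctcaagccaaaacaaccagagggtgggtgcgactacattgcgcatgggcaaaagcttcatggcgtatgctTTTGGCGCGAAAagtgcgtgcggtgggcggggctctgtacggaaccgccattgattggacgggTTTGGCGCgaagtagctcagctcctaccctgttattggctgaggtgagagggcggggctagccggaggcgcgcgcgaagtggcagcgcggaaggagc
The Ccnb2 window held 3 CCAAT boxes and 2 CHR strings, the Top2a window 6 and 4, and the Mcm6 window 3 E2F strings. Signals of Ccnb2 were 593, 1286 and 1123 at E8.5 and 8, 9.5 and 6 at P90, and those of Mcm6 were 3023, 2222 and 2240 at E8.5 and 110, 99.3 and 57 at P90.

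Of 33 windows of the mitosis list 72.7% held both a CCAAT box and a CHR, against 5.43% of all 14161 windows, 9.25% of those of lower genes and 3.58% of those of higher genes. A CHR alone was in 81.8% of mitosis windows and 14.0% of all. E2F strings were in 36.8% of 38 DNA replication windows, 3.07% of all, 6.36% of lower and 1.47% of higher. The median number of CpG pairs per window was 15 for higher genes, 23 for lower genes and 19 for all, and TATAAA (either strand) was in 9.65%, 6.36% and 8.1%. These are counts of letters in short windows, matched to 11090 of the tested genes, and a match does not show binding.

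**Figure D4:**
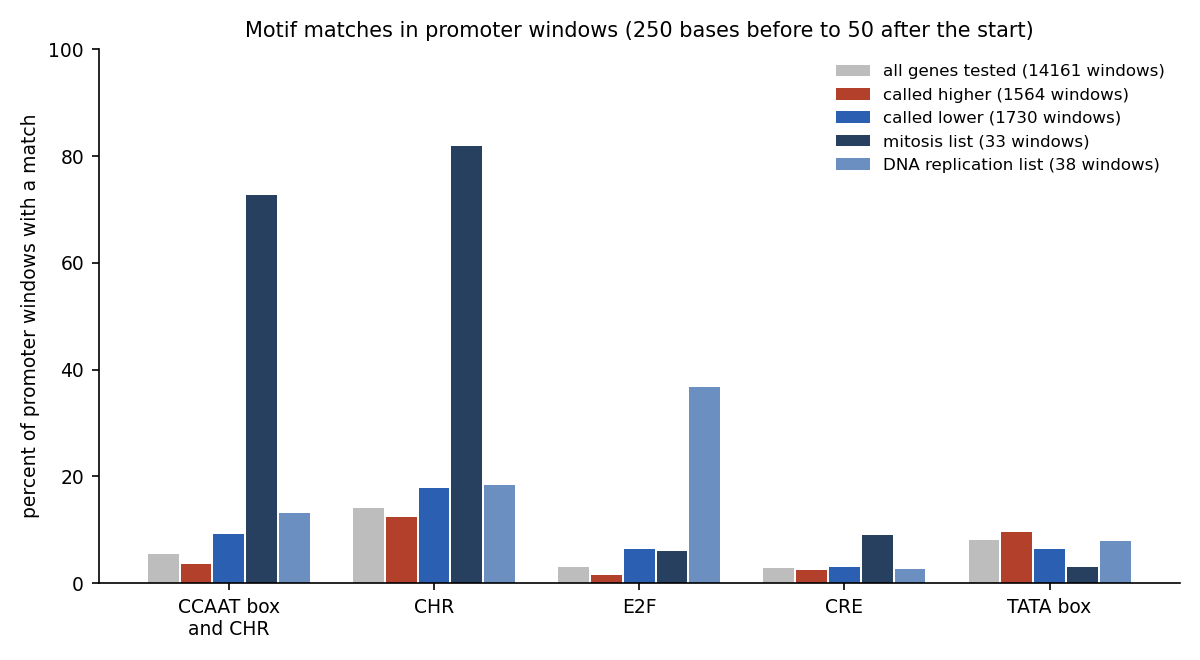
Percent of promoter windows that hold each motif on either strand, for all genes tested, genes called higher, genes called lower and the members of the mitosis and DNA replication lists. The mitosis bar for a CCAAT box together with a CHR stands at 72.7% and the DNA replication bar for E2F at 36.8%, while the bars of genes called higher are near those of all genes.

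Chromatin genes were called in both directions. Of 25 DNA methylation and Polycomb genes 8 fell and 4 rose, with 11 and 4 without P90 replicate 1 and 7 and 2 without E8.5 replicate 1. Uhrf1, which brings the maintenance methyltransferase to new DNA, read 2427 and 2276 on replicates 2 and 3 at E8.5 and 21.6, 14.9 and 10.8 at P90. Dnmt3b, a de novo methyltransferase, read 1164, 1364 and 1561 at E8.5 and 51.5, 81 and 48.5 at P90, and Ezh2, the Polycomb methyltransferase of dividing cells, read 2038, 2271 and 2226 at E8.5 and 157, 182 and 93.2 at P90. Its relative Ezh1 went the other way, with 103, 67 and 62.4 at E8.5 and 470, 372 and 221 at P90. Cbx2, a Polycomb chromodomain protein, changed by -3.93, with a second probe set at 0.15. The pair of Ezh genes thus moved in opposite directions. The count of rises was 2 without any one of the E8.5 arrays or P90 replicate 2. Of 24 chromatin remodelling and histone genes 13 fell and 2 rose, with 14 and 1 without P90 replicate 1 and 12 and 1 without E8.5 replicate 1. Hmgb2 read 2595, 2841 and 2774 at E8.5 and 158, 128 and 131 at P90, with another probe set, at mean signals of 191 and 175, at -0.07. Chaf1b, a histone chaperone of replicating DNA, read 492, 350 and 351 at E8.5 and 27.9, 15 and 26.9 at P90. The rises, Chd5 with 2.83 and the neuronal BAF subunit Actl6b with 0.95, were both lost without E8.5 replicate 3, P90 replicate 2 or P90 replicate 3.

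Genes of ribosome assembly were lower in the medulla. Of 39 ribosome biogenesis genes 36 fell and 0 rose, with a median of -2.21, with 36 without P90 replicate 1 and 26 without E8.5 replicate 1. Nop56, of the small nucleolar RNA complex that methylates ribosomal RNA, read 2731 and 2411 on replicates 2 and 3 at E8.5 and 213, 484 and 291 at P90, and Rrp1b read 1672, 1236 and 1343 at E8.5 and 149, 199 and 183 at P90. Npm1, nucleophosmin, changed by -2.69. Of 29 cytosolic ribosomal protein genes 5 fell and 0 rose, with a median of -0.94, although for 28 of the 29 every P90 array was below every E8.5 array, which held for 23.7% of all genes. Rps15 read 6313, 4044 and 4249 at E8.5 and 1895, 2601 and 1826 at P90, and its call was lost when E8.5 replicate 1, E8.5 replicate 3 or P90 replicate 3 was left out (limma adjusted p 0.0528 to 0.0901). The ribosomal protein count was 14 without P90 replicate 1, 2 without E8.5 replicate 1 or 3, and 20 without E13.5 replicate 2. Leaving out E8.5 replicate 2 or P90 replicate 3 gave 3. Splicing factors fell in 13 of 36 and rose in 1. Snrpb, a core spliceosome protein, read 4036, 3886 and 3209 at E8.5 and 1089, 903 and 442 at P90, and Mbnl2, a splicing factor of mature tissue, rose, with 48.1, 194 and 198 at E8.5 and 1635, 1515 and 943 at P90. One of the 4 other Mbnl2 probe sets moved the opposite way, by -0.51. Splicing falls numbered 19 without P90 replicate 1, 6 without E8.5 replicate 1, 7 without E8.5 replicate 2 or 3, 5 without P90 replicate 2, 6 without P90 replicate 3 and 20 without E13.5 replicate 2.

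Metabolic genes of growth fell and those of respiration were not called. Of 20 glycolysis and glucose uptake genes 7 fell and 1 rose. Slc2a1, the glucose transporter GLUT1, read 5987, 5537 and 5812 at E8.5 and 451, 910 and 604 at P90, and Ldha, lactate dehydrogenase A, read 6159, 7828 and 6946 at E8.5 and 1866, 1033 and 582 at P90. Slc16a1, a lactate transporter, changed by -3.35. The count of falls was 11 without P90 replicate 1, 5 without E8.5 replicate 1, 4 without E8.5 replicate 2 or 3 and 11 without E13.5 replicate 2. Of 27 one-carbon and nucleotide synthesis genes 14 fell and 0 rose. Cad, which starts pyrimidine synthesis, read 1630, 1131 and 1124 at E8.5 and 92.3, 134 and 91.4 at P90, and Psat1, of serine synthesis, read 4426, 4395 and 4234 at E8.5 and 615, 774 and 536 at P90. That count was 18 without P90 replicate 1, and 9, 7 and 8 without E8.5 replicates 1, 2 and 3. Of 39 respiratory chain and ATP synthase genes 0 were called by limma in either direction, and 0 were higher and 2 lower at an unadjusted p under 0.05. The median of the list was -0.25 as deposited, 0.23 after quantile normalization and -0.44 with arrays scaled to one median. Quantile normalization gave 3 higher and 2 lower, and the most under any setting was 3 higher and 10 lower. P90 replicate 1 was above the mean of the other P90 arrays for 38 of these 39 genes, and without it 2 fell, while without E8.5 replicate 1 there were 0 calls.

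Of 24 genes of the TCA cycle and mitochondrial metabolism 3 rose and 3 fell, near the 10.9% and 12.5% over all genes. Pdk1, which restrains pyruvate dehydrogenase, read 1256, 1523 and 1758 at E8.5 and 282, 178 and 88.3 at P90, while its relative Pdk4, known to answer to glucocorticoid and fasting, rose, with 9.3, 10.8 and 2.4 at E8.5 and 71.8, 52.6 and 42.7 at P90. Pcx, pyruvate carboxylase, read 174, 85.9 and 71 at E8.5 and 1813, 581 and 406 at P90. The counts were 2 and 3 without P90 replicate 1, 2 and 1 without E8.5 replicate 1, and 1 and 1 without P90 replicate 2 or 3. The lower count was 0 without E8.5 replicate 2 or 3 and 1 without E13.5 replicate 3.

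Genes of lipid handling, lysosome and secretory path rose in part. Of 33 lysosome and autophagy genes 11 rose and 0 fell, with a median of 1.13, and 22 rose after quantile normalization. Gaa, acid alpha-glucosidase, read 323, 172 and 197 at E8.5 and 1135, 1746 and 1356 at P90, and Ctsb, cathepsin B, read 1181, 798 and 898 at E8.5 and 7776, 4247 and 3613 at P90. The count was 8 of 32 without P90 replicate 1, 9 without E8.5 replicate 1, 4 without E8.5 replicate 2 and 5 without E8.5 replicate 3. Of 29 endoplasmic reticulum genes 6 rose and 0 fell, with 4 without P90 replicate 1 and 5 without E8.5 replicate 1. Ern1, the unfolded protein sensor IRE1, read 196, 237 and 230 at E8.5 and 3710, 1732 and 1030 at P90, and Sec24d, a coat protein of secretory vesicles, read 40.9, 127 and 127 at E8.5 and 2260, 815 and 489 at P90. Other Ern1 probe sets, with mean signals under 80, moved by -0.48 and 0.57. Of 20 cholesterol genes 4 rose and 0 fell, with 3 of 19 without P90 replicate 1, 4 without E8.5 replicate 1 and 2 without P90 replicate 2. Dhcr7, the last enzyme of cholesterol synthesis, read 351, 1200 and 1034 at E8.5 and 5891, 3370 and 2959 at P90, and Abca1, a cholesterol exporter, read 314, 188 and 166 at E8.5 and 5442, 1459 and 763 at P90. Of 23 antioxidant genes 5 rose and 1 fell, and 2 rose without P90 replicate 1 or 2 and 3 without any one E8.5 array. Gstm1, a glutathione transferase, read 72.9, 129 and 109 at E8.5 and 2703, 660 and 521 at P90, highest on P90 replicate 1.

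Most genes that answer to steroid were higher at P90, and clock genes were called in both directions. Of 19 glucocorticoid response and metallothionein genes 13 rose and 1 fell, with a median of 1.61, and 10 of 17 without P90 replicate 1, 9 without E8.5 replicate 1, 8 without E8.5 replicate 2 and 7 without P90 replicate 2. Hsd11b1, which regenerates active glucocorticoid, read 22, 17 and 21.9 at E8.5 and 2533, 934 and 430 at P90, while Hsd11b2, which inactivates it, fell, with 155, 105 and 89.4 at E8.5 and 6, 33.8 and 23 at P90. Klf9 read 244, 153 and 165 at E8.5 and 4782, 2438 and 1311 at P90, and the receptors Nr3c1 and Nr3c2 rose by 2.14 and 2.75. Of 15 circadian clock genes 7 rose and 3 fell, with 6 and 3 without P90 replicate 1 and 9 and 3 without E8.5 replicate 1. Tef read 136, 142 and 144 at E8.5 and 723, 747 and 614 at P90, with other probe sets at 0.50 and -0.36, and Nr1d2, a repressor of the clock, read 67.3, 204 and 168 at E8.5 and 1344, 532 and 515 at P90. Nfil3, known to act against Tef and its relatives Dbp and Hlf, fell, with 274, 180 and 131 at E8.5 and 40.3, 49.1 and 38.4 at P90. The hour at which tissue was taken is not among the labels used here.

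Antigen presentation and interferon-stimulated genes rose. Of 13 class I genes 9 rose and 0 fell, with a median of 1.54, with 6 of 11 without P90 replicate 1 and 9 without E8.5 replicate 1. B2m, the light chain of class I molecules, read 212, 252 and 256 at E8.5 and 5134, 2612 and 1407 at P90, Tap2, a peptide transporter, read 7.8, 7.4 and 7.3 at E8.5 and 261, 172 and 232 at P90, and Psmb8, an immunoproteasome subunit, read 3.8, 9.3 and 4.8 at E8.5 and 142, 199 and 183 at P90. Tap2 and Psmb8 were under 10 on every E8.5 array. Of 20 interferon-stimulated genes 13 rose and 1 fell, with a median of 1.46, with 8 of 14 without P90 replicate 1, 12 without E8.5 replicate 1, 5 without P90 replicate 2 and 7 without P90 replicate 3. Its median was 0.91 without P90 replicate 2. Rtp4 read 10.7, 12 and 14.8 at E8.5 and 352, 260 and 128 at P90, and Iigp1 read 43.5, 51.5 and 35.5 at E8.5 and 218, 896 and 360 at P90. Ifitm1 fell, with 1225, 1439 and 913 at E8.5 and 182, 63 and 72.2 at P90. Of 21 immediate early and dissociation stress genes 5 rose and 1 fell, with 4 and 2 without P90 replicate 1 and 4 and 1 without E8.5 replicate 1. The rises included Junb, with 1.6, 2.2 and 6.2 at E8.5 and 207, 163 and 126 at P90, and Hspa1b, with 137, 137 and 154 at E8.5 and 3539, 1782 and 733 at P90, and the count was 3 without E8.5 replicate 2 or P90 replicate 2.

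Markers of other cell types moved between the stages too, and their part in the results above was not tested. Of 21 macrophage and immune genes 13 rose and 0 fell, with 11 of 19 without P90 replicate 1, 13 without E8.5 replicate 1 and 6 without P90 replicate 2 or 3. The summed signal of the 16 with values on all 6 arrays was 1926 to 2612 at E8.5 and 5606 to 10239 at P90. H2-Eb1, a class II chain, read 23.9, 19.7 and 8.7 at E8.5 and 786, 1576 and 1046 at P90, and C1qb, a complement subunit of macrophages, read 37.7, 22.8 and 39.7 at E8.5 and 1243, 759 and 305 at P90. Of 22 endothelial genes 7 rose and 0 fell, with 6 without either replicate 1, and the summed signal of 19 was 1710 to 2995 and 3453 to 10531. Vwf, von Willebrand factor, read 6.6, 9.2 and 8.2 at E8.5 and 138, 229 and 136 at P90, while Pecam1 was below the filter. Of 27 fibroblast and mesenchyme genes 7 rose and 6 fell, with 7 and 8 without P90 replicate 1 and 7 and 6 without E8.5 replicate 1, and their summed signal was 8626 to 10003 and 10273 to 27824. Dcn, decorin, read 25, 22.2 and 31.8 at E8.5 and 2443, 672 and 360 at P90, and Fn1, fibronectin, fell, with 1305, 1367 and 1015 at E8.5 and 120, 58.6 and 47.4 at P90. Col1a1 was not called, with 57.5, 202 and 185 at E8.5 and 247, 173 and 182 at P90.

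For the adrenal cortex, 4 of 7 tested genes rose and 0 fell, with 3 of 6 without P90 replicate 1, 4 without E8.5 replicate 1 and 2 without P90 replicate 2. The summed signal of the 3 with values on all 6 arrays was 125 to 237 at E8.5 and 4530 to 9803 at P90, with P90 replicate 1 the highest. Fdx1, the ferredoxin that feeds electrons to steroid hydroxylases, read 70.9, 172 and 166 at E8.5 and 8173, 4787 and 4152 at P90, and Agtr1a, an angiotensin receptor, read 25.7, 30 and 43.9 at E8.5 and 1557, 689 and 361 at P90. Nr5a1, the cortex factor SF-1, read 31.5, 29.2 and 55.2 at E8.5 and 445 and 318 on replicates 2 and 3 at P90. Star, Cyp11b1 and Cyp21a1, which define the cortex, were not tested because all 3 P90 cells of their probe sets were empty. The tested probe set of Cyp11a1 read 28.7, 26.3 and 27.8 at E8.5 and 73.2, 26.2 and 16.3 at P90 and was not called. Most of these values lay near the filter signal of 26.1. Another Cyp11a1 probe set was empty on all 3 P90 arrays, as for Star, and read 6.5, 8.3 and 4.2 at E8.5. Fdx1 and Agtr1a were highest on P90 replicate 1, the array on which the neuronal genes were lowest.

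The E8.5 side held markers of neighbouring embryonic tissue. Of 16 surface and gut epithelium genes 7 fell and 0 rose, with 9 of 15 without P90 replicate 1, 5 of 14 without E8.5 replicate 1, 2 without E8.5 replicate 2 and 3 without E8.5 replicate 3. Their summed signal over 15 genes was 3264 to 5910 at E8.5 and 1196 to 2394 at P90. Krt8, a keratin of simple epithelium, read 353, 1041 and 1188 at E8.5 and 35.4, 38.2 and 39.9 at P90, and Cldn6, an embryonic tight junction gene, read 45.4, 253 and 217 at E8.5 and 17.6, 16.9 and 13.9 at P90. Cdh1, E-cadherin, read 26.5, 414 and 447 at E8.5 and 6.1, 3.8 and 7.8 at P90, so E8.5 replicate 1 was far below the other E8.5 arrays. Of 14 muscle, heart and somite genes 2 fell and 0 rose, near the 12.5% lower over all genes, with 3 without P90 replicate 1, 1 without any one of the E8.5 arrays and 4 without E13.5 replicate 2. The list had 24 annotated members, so its count leaves out those not tested. Among these was Meox1, with too few arrays above the signal filter. It read 1288 and 1226 on replicates 2 and 3 at E8.5, with replicate 1 empty, and 11.8, 9.7 and 8.1 at P90. Myf5, a myogenic factor, read 34.6, 397 and 202 at E8.5 and 2.4, 1.2 and 1.4 at P90, and Tcf15, a somite factor, read 976, 304 and 171 at E8.5 and 63.8, 60.6 and 54.1 at P90, with E8.5 replicate 1 at opposite ends of its stage for the pair. Of 7 genes of notochord, node and visceral endoderm limma called 0, with 0 at an unadjusted p under 0.05, and of 7 of adrenal capsule and fat 2 fell, Rspo3 and Gli1, with 2 without P90 replicate 1 and 1 without E8.5 replicate 1 or 3. Rspo3 read 138, 72.8 and 140 at E8.5 and 25.5, 9.7 and 3.3 at P90. Without E8.5 replicate 1 or 3 another of its probe sets was read, which moved by 0.26 and 0.33 and was not called (limma adjusted p 0.666 and 0.567).

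Globins switched between the stages. Hbb-bh1, an embryonic globin, read 479, 1736 and 3489 at E8.5 and 11.9, 14.9 and 14.1 at P90, and Hbb-b2, an adult globin, read 30.9, 28.5 and 21.6 at E8.5 and 378, 652 and 347 at P90. Alas2, the heme enzyme of red cells, rose, with 12.3, 23.9 and 64.7 at E8.5 and 382, 213 and 221 at P90. Of 11 red cell genes 2 rose and 3 fell, with the same counts without P90 replicate 1 and 2 and 2 without E8.5 replicate 1, and the summed signal of 10 of them was 6480 to 14066 at E8.5 and 2038 to 4849 at P90. E8.5 replicate 1 was the lowest of its stage for both embryonic globins.

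**Figure D5:**
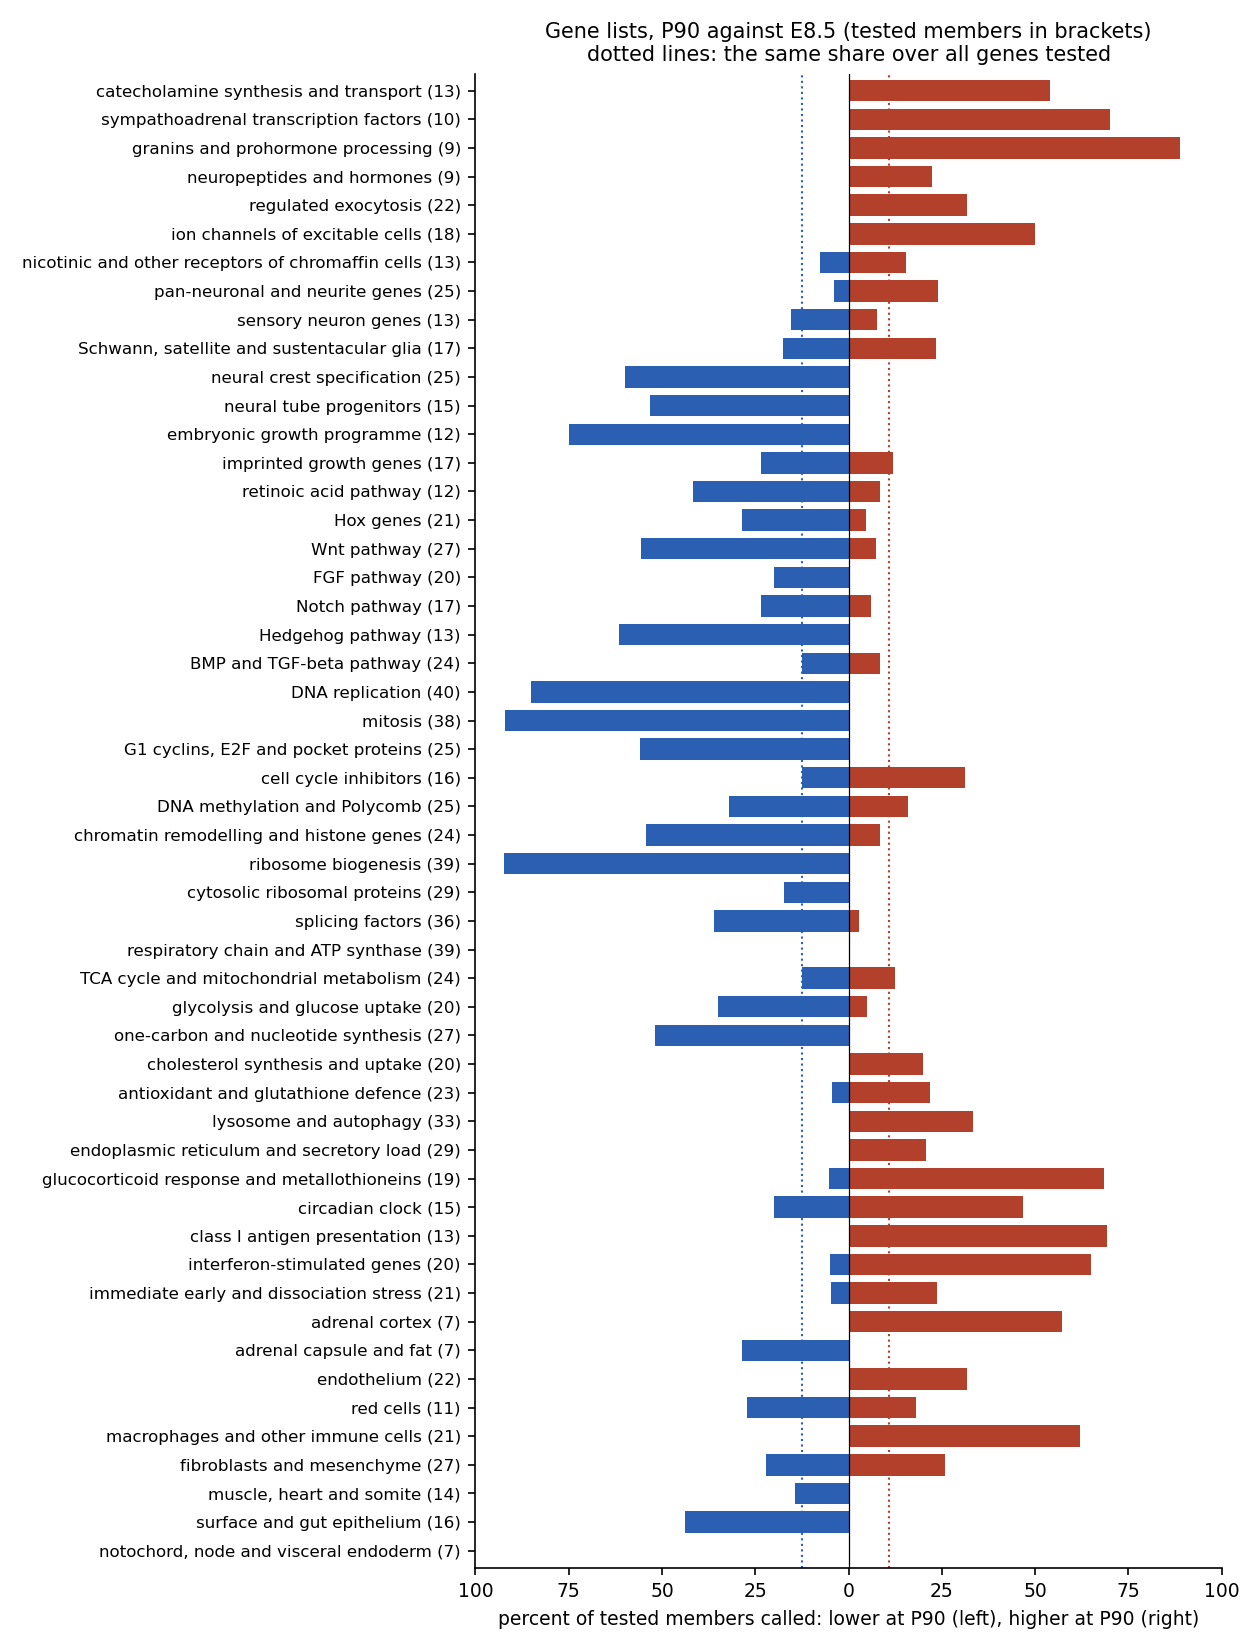
Percent of the tested members of each gene list called lower (blue, left) or higher (red, right) at P90, with the number of tested members in brackets and dotted lines for the shares over all genes, 12.5% lower and 10.9% higher. The longest bars to the left are ribosome biogenesis, mitosis and DNA replication, and the longest to the right are granins, sympathoadrenal transcription factors and class I antigen presentation.

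Directions with 0 calls held few members near the threshold. Limma called 0 members higher in 16 lists, which held 366 tested members (counted once per list), and 1 of these was higher at an unadjusted p under 0.05. It called 0 lower in 15 lists with 272 members, of which 4 were lower at that level.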

How the data were processed

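Values were the intensity table that the authors deposited for 45101 probe sets, with 1 linear signal per array. MAS5, GCOS, RMA and GCRMA appear in the submitters' processing notes with no role, so how these deposited intensities were normalized is not given in the sources used here. Of 405909 cells 8048 (1.98%) were empty, with no reason stated. Of all probe sets 34945 had 1 gene symbol, 932 several and 9160 none.

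Signals were taken to log2(signal + 16) with no scaling between arrays. A probe set had to exceed a signal of 26.1, the 40th percentile, on 3 of 9 arrays and to hold 2 values at E8.5 and at P90, and the probe set with the highest mean stood for its gene. A gene under that signal at E8.5 and E13.5 was thus tested only if all 3 P90 arrays exceeded it. Rab3b (16.9, 233 and 197 at P90) and Cd163 (12.2, 210 and 137) were left out this way. The same rule at E8.5 left out Esrp1 (10.2, 112 and 126 at E8.5). List counts and the shares of genes without overlap depend on this filter. All 9 arrays were fitted by stage in limma 3.58.1 under R 4.3.3, with lmFit and with eBayes allowing a trend of variance with level. Tests were two-sided, p-values of the 13833 genes were adjusted by Benjamini-Hochberg, and a gene was called under 0.05. Arrays have no read depth, and their number limits the precision. Tested on simulated data for this comparison, with 200 of 13833 genes changed, the script recovered 5% of genes changed by 1 on the log2 scale and 49% of those changed by 2, with 3 false calls.

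Members, the 52 gene lists and the tests were chosen with earlier results of these data known, so they are no independent support. Named genes were the 15 largest rises and falls of called genes whose arrays did not overlap and held no empty value, up to 4 called members per list in its main direction and 2 in the other, and a set of check genes. Further genes were chosen after their values were seen: Phox2a, Prox1, Pcsk1, Kcnma1, Twist1, Sox9, Msx1, Zic5, Lin28a, Igf2bp3, Fzd7, Fzd2, Smo, Hoxb2, Hoxb3, Ccnb2, Npm1, Nr3c1 and those of the closing section. Alternatives covered scaling, pseudocounts, filters, probe set rules, the variance model, array weights, a replicate block, an Actb covariate and leaving out each array.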

Additional observations from a re-analysis of the deposited data

How the results depend on the processing

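Genes called higher and lower numbered 1504 and 1734. They became 3138 and 3581 with array weights and 384 and 469 when a change of at least 2-fold was tested, which asks for a larger change. The cause of the move with array weights was not tested. With 1 array left out they lay between 837 and 1792 higher and between 1037 and 2156 lower, the highest of both without E13.5 replicate 2. The other settings stayed within 1.5 times of both counts: quantile normalization gave 2044 and 2146, and an Actb covariate 2046 and 2481. Scaling arrays to one median moved the median of all genes to -0.17, with 1254 higher and 2154 lower. The list medians of respiratory chain, cholesterol, imprinted, BMP and TGF-beta, glia and notochord genes changed sign with scaling. Quantile normalization raised the called members to 12 of 22 in exocytosis, 22 of 33 in lysosome, 10 of 29 in endoplasmic reticulum and 10 of 23 in antioxidant genes (higher), and to 11 of 20 in glycolysis and 10 of 29 in ribosomal protein genes (lower).

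Replicate numbers did not pair the arrays: same-numbered E8.5 and P90 arrays correlated in their deviations at -0.06, -0.07 and 0.09 over 12702 genes. The replicate block gave 1504 higher and 1688 lower, with 2985 calls shared with the fit without it.

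Of 256 named and called genes, 50 lost the call without at least 1 array. Values that changed sign came from another probe set of the gene. They were Slc2a3 (0.29) and H2-D1 (-0.24) without probe sets that can match several transcripts, Fgf13 (0.57) with 2 values asked of each of 3 stages, Jag1 (0.34) with no empty value, and Jag1 and Rspo3 with 1 E8.5 array left out. Over all leave-one-out fits Jag1 lay between -1.66 and 0.49, with 0.19 and 0.49 without E8.5 replicates 2 and 3, and Rspo3 between -2.53 and 0.33, with 0.26 and 0.33 without E8.5 replicates 1 and 3. Changes that were small against the spread between 3 arrays a stage could not be called.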

Other observations

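Gene families were also read by the stem of their symbols, for every stem with 15 or more tested genes. Nucleoporins, which build the nuclear pore, were lower: 14 of 18 Nup genes fell and 0 rose, with a median of -2.16, beside 12.5% lower over all genes. Nup160 read 538, 1040 and 784 at E8.5 and 90.5, 82.1 and 34.5 at P90, and Nup107 read 999, 1679 and 1288 at E8.5 and 184, 176 and 199 at P90. Of 25 RNA polymerase subunit genes (Polr) 10 fell and 1 rose. Within polymerase III, Polr3g fell, with 153, 234 and 264 at E8.5 and 43.7, 44.3 and 28.9 at P90, and its paralog Polr3gl rose, with 72.8, 51.5 and 53.1 at E8.5 and 196, 356 and 284 at P90. Of 15 Integrator subunit genes (Ints) 6 fell and 0 rose, with Ints7 at -2.40, and of 45 translation initiation genes (Eif) 13 fell and 0 rose, with a median of -0.97. The stems were described after the calls were known, and no family was tested as a set.

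Other families leaned the other way. Of 257 solute carrier genes 42 rose and 15 fell, and 16.3% higher compares with 10.9% over all genes. Slc41a2, a magnesium transporter, read 4.1, 1 and 2.7 at E8.5 and 188, 670 and 380 at P90, and Slc40a1, the iron exporter ferroportin, read 27.6, 59.2 and 72.8 at E8.5 and 1125, 364 and 199 at P90. Of 35 cytochrome P450 genes (Cyp) 7 rose and 0 fell, among them Cyp4v3 with 4.53 and Cyp1b1 with 1.94. Of 20 Abhd genes, which encode alpha/beta hydrolases, 9 rose and 1 fell, and Abhd3 read 8.6, 8 and 7.4 at E8.5 and 590 and 265 on replicates 2 and 3 at P90. The part of cortex and vessel cells in these rises was not tested.

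On all 3 P90 arrays 118 probe sets were empty, and on all 3 E8.5 arrays 65. The 96 and 56 with 1 gene symbol belonged to 85 and 52 genes, of which 48 and 27 were tested through another probe set. Where that other probe set was called, it was higher at P90 for genes empty at P90 and lower for genes empty at E8.5. The rest of these were not called. Genes without another tested probe set are missing from the list counts. The examples were chosen after the values were seen. Those empty at P90 included probe sets of Star, Cyp11b1, Cyp21a1, Hsd3b1, Mrap and Akr1c18 of the adrenal cortex, of Scg2 and Npy of chromaffin granules, and of Hand2. Those empty at E8.5 included probe sets of Sox1, Irx3, Sall1, Trim71 and Hoxb1 of the early embryo. The median signal at the other stage was 16.5 for the first set and 10.9 for the second, against 40.4 and 47.5 over all probe sets at those stages. What made the cells empty was not tested.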
